A study of Danio rerio with 16 samples.

Results

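The slow myosin heavy chains and slow fibre regulators of adult zebrafish tail muscle were followed through a stab injury in wild type fish and in ankrd1a mutants. Members were chosen by name: the rows of the gene count table for smyhc1, smyhc2, smyhc3, vmhc, prdm1a, sox6 and mybpc1, 7 names in all. The rule itself used no measured value, but the names were chosen with earlier results of these data known. Of these names 5 could be matched to 1 row each among the 32520 genes of the table: smyhc1 (ENSDARG00000099959), smyhc2 (ENSDARG00000103969), sox6 (ENSDARG00000015536), mybpc1 (ENSDARG00000045560) and, through the synonym that RefSeq gives it, prdm1a (ENSDARG00000002445, symbol PRDM1). For smyhc3 and vmhc the gene names led to no single row, and these 2 genes are not analysed here. In the RefSeq gene table of assembly GRCz12tu, smyhc1, smyhc2 and smyhc3 are direct neighbours, with 0 protein coding genes between smyhc1 and smyhc2 and 0 between smyhc2 and smyhc3.

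RNA was sequenced from 16 adult fish, 1 fish per library, in 4 groups of 4. Wild type fish were of the strain AB (Oregon), and mutant fish carried bns502, an ankrd1a allele obtained with CRISPR/Cas9; ankrd1a encodes a muscle ankyrin repeat protein. Injured fish of both genotypes had received a needle stab in the dorsal myotome of the tail and had recovered for 5 days, after which the skeletal muscle surrounding the wound was dissected. The corresponding muscle was dissected from non-injured fish of both genotypes. The labels do not state age in numbers, sex, or where in ankrd1a the lesion lies. Each mutant fish came from a single allele, so line and genotype cannot be told apart.

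Slow fibres are the oxidative, fatigue-resistant fibres of the fish myotome, set apart as a superficial layer from the fast fibres that make up most of the muscle. In the zebrafish embryo, Hedgehog signals from the midline turn on prdm1a in the slow fibre precursors, and the Prdm1a protein represses sox6, itself a repressor of slow genes in fast fibres. The slow programme ends in contractile proteins: the myosin heavy chains Smyhc1, Smyhc2 and Smyhc3, which are the motor of the thick filament, the slow type myosin binding protein C encoded by mybpc1, which sits along that filament, and slow troponins, tropomyosins and light chains.

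Library totals ran from 17324501 to 25231137 estimated counts, and depth went partly with genotype. Injured fish had 22006043 to 24189296 counts in wild type and 17324501 to 17994093 in mutants, with no overlap. Non-injured fish had 18011159 to 25231137 and 17523729 to 19811579 in the same order. The part of depth in the genotype comparisons was not tested. Levels are given in CPM, counts scaled to a common library size by TMM (trimmed mean of M values). Defining skeletal muscle genes were high throughout, with a summed level of 102730 to 235264 CPM over 8 IDs. Heart markers were close to absent: the natriuretic peptide gene nppb and the transcription factor gene TBX20 had 0 counts in every library, and the atrial light chain gene MYL7 had at most 4. Of 11 heart IDs only TNNT2 (ENSDARG00000100694), a cardiac type troponin T row, passed the filter, with 7 to 63 counts a library and at most 3.25 CPM. In bulk tissue, fewer slow fibres and less slow RNA per fibre cannot be told apart. The symbol ANKRD1 stands at 2 IDs that the symbol table does not separate into ankrd1a and ankrd1b. At ENSDARG00000075263 the level was 1.77 to 5.08 CPM in non-injured and 148 to 186 CPM in injured wild type fish, and 1.09 to 1.44 and 90.0 to 148 CPM in the same order in mutants, so transcript was present in mutants and this gene does not check the genotype labels. Libraries of the wild type non-injured fish 1 and the wild type injured fish 1 were highest in 14 epidermis markers, with a mean of 5.17 and 4.86 log2 CPM. Next was mutant injured fish 1 at 3.88. Lowest were mutant non-injured fish 1, 3 and 4 (0.44, 1.11 and 1.61) and wild type injured fish 3 (1.29). All 14 markers were lower in non-injured mutants than in non-injured wild type fish (median log2 difference −1.67, 0 called), so epidermis content went partly with group. Where a call named here is lost without the 2 highest libraries, the value without them is given.

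After injury, smyhc2 fell in both genotypes. The scarce prdm1a was called higher in both, but it passed the filter on low counts through the injured libraries alone, and its call in mutants was lost in 9 of 25 alternatives. The myosin binding protein gene mybpc1 was called lower in mutants, a call lost in 6 of 26 alternatives. In wild type it was lower by 0.75 on the log2 scale without passing (edgeR adjusted p = 0.083). Its responses did not differ between genotypes by the test (edgeR adjusted p = 0.94). The gene smyhc1 passed the test in neither genotype, and sox6 stayed within a narrow band. A gene was called at an edgeR adjusted p below 0.05. In wild type fish 2 of the 5 matched members were called, 1 higher and 1 lower, where 23.8% of the 16514 genes tested were called, 11.8% higher and 11.9% lower. In mutants 3 of 5 were called, 1 higher and 2 lower, where 27.2% of all genes were, 14.0% higher and 13.3% lower. The 1 higher in each genotype was prdm1a, so the counts of higher members carry the limit of its filter. No member was called between genotypes, where edgeR called 2.83% of genes in non-injured fish (1.38% higher and 1.45% lower in mutants) and 1.48% in injured fish (0.83% and 0.648%). Nor was a member called between the responses to injury, where 0.0606% of genes were (0.0182% higher and 0.0424% lower in mutants).

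**Figure D1:**
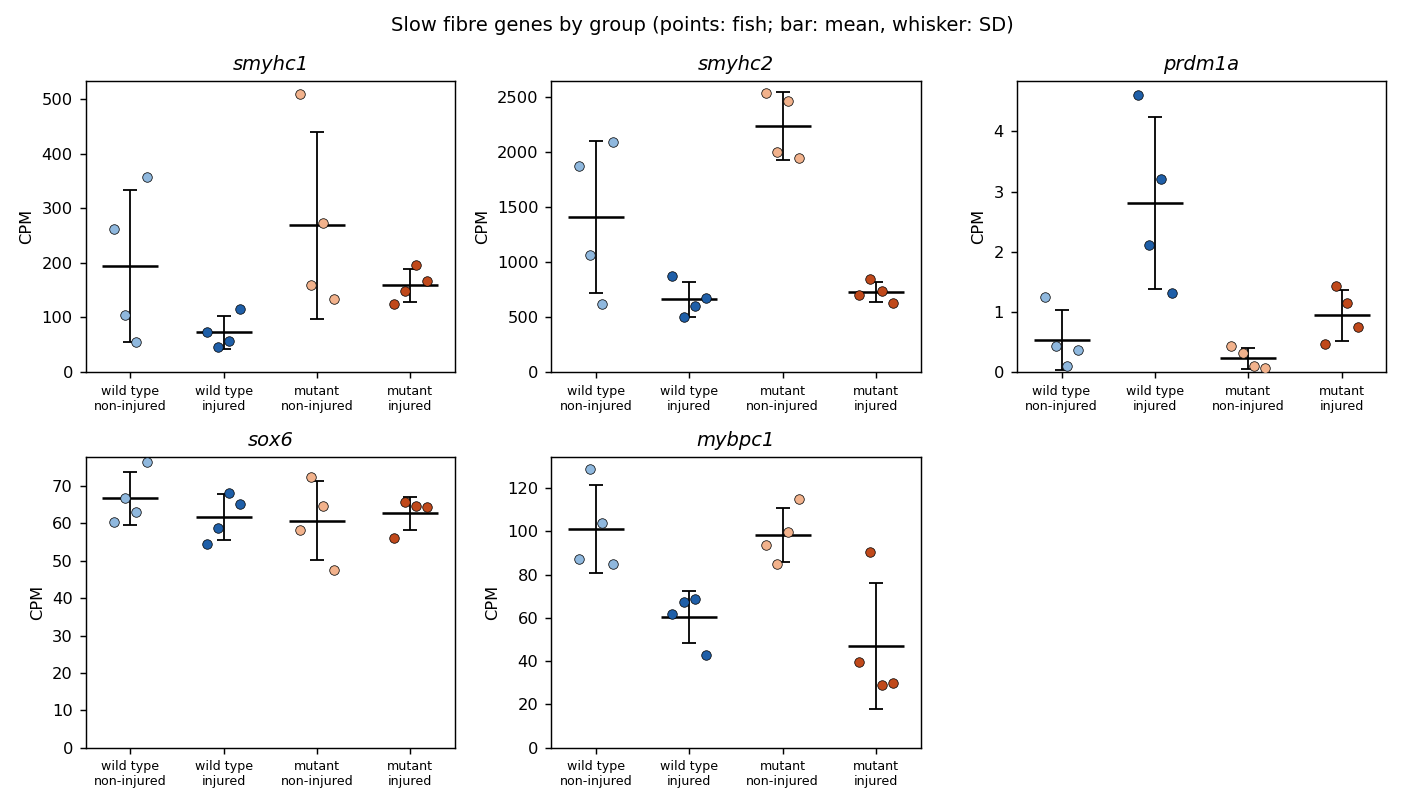
Level of each matched member (CPM, linear axis from 0) in every fish, by group; points are fish, the bar is the mean and the whisker the SD (n = 4). The 4 mutant non-injured fish lie between 1946 and 2536 CPM for smyhc2, above all 8 injured fish, and the 8 injured fish lie between 0.467 and 4.61 CPM for prdm1a.

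The slow myosin heavy chain gene smyhc2, next to smyhc1 in the genome, drew most of the counts of the pair. In wild type non-injured fish 1 to 4 its level was 1875, 1064, 615 and 2094 CPM. In wild type injured fish it was 871, 498, 600 and 675 CPM. Non-injured fish 3 lay inside the injured range, and the other three lay above it. The mean went from 1412 ± 692 to 661 ± 158 CPM (SD, n = 4), a 2.14-fold lower level (log2 change −1.10 ± 0.30 SE, edgeR adjusted p = 0.015). Without the 2 libraries high in epidermis markers the change was −1.09, with an edgeR adjusted p of 0.038. The call was lost, at an edgeR adjusted p of 0.054 each, without non-injured fish 4 or without injured fish 2, at 0.082 in a fit of only these 2 groups, and at 0.11 when libraries were scaled by total count only, where the change was −0.81.

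In mutants, smyhc2 stood at 2536, 1998, 2464 and 1946 CPM in non-injured fish 1 to 4. In mutant injured fish it stood at 702, 843, 739 and 632 CPM. The groups did not overlap: every injured fish was below every non-injured fish. The mean went from 2236 ± 307 to 729 ± 87.7 CPM (SD, n = 4), 3.07-fold lower (log2 change −1.62 ± 0.30 SE, edgeR adjusted p = 0.0013), and this call held in all 26 alternatives. The injured mutants, at 632 to 843 CPM, lay inside the wider range of the injured wild type fish, 498 to 871 CPM. The difference between the injured genotypes was 0.14 on the log2 scale (95% interval −0.48 to 0.77, edgeR adjusted p = 0.87). In non-injured fish mutants were higher by 0.66 on the log2 scale (95% interval 0.04 to 1.29), which did not pass the adjusted threshold (edgeR adjusted p = 0.23). Wild type fish 4, at 2094 CPM, lay within the mutant range, and fish 1, at 1875 CPM, lay below the lowest mutant at 1946 CPM. The test of the difference between the injury responses gave −0.52 ± 0.42 (edgeR adjusted p = 0.86).

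The gene smyhc1 encodes the slow myosin heavy chain best known from the superficial slow fibres of the embryo. Its level in wild type non-injured fish was 262, 105, 54.2 and 357 CPM, a spread of several fold within 1 group. In wild type injured fish it was 74.1, 46.4, 57.3 and 115 CPM. These groups overlapped through the same non-injured fish 3 that was low for smyhc2. The mean of 195 ± 140 CPM against 73.3 ± 30.3 CPM (SD, n = 4) gave a log2 change of −1.41 ± 0.52 SE that missed the threshold (95% interval −2.53 to −0.29, edgeR adjusted p = 0.064). DESeq2 called it (adjusted p = 0.020), as did edgeR without non-injured fish 3 (0.019), without injured fish 4 (0.045) or without mutant non-injured fish 1 (0.046). Its adjusted p lay between 0.019 and 0.22 across the alternatives.

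In mutants smyhc1 was at 510, 160, 273 and 134 CPM in non-injured fish and at 124, 149, 196 and 166 CPM in injured fish. Mutant non-injured fish 1 had the highest value of all 16 fish. Fish 3 was above the injured group too, and fish 2 and 4 lay within its range. The change on injury was −0.76 ± 0.52 SE on the log2 scale (95% interval −1.87 to 0.34, edgeR adjusted p = 0.30). Between injured fish of the 2 genotypes the values did not overlap, the lowest mutant at 124 CPM and the highest wild type fish at 115 CPM. That difference, 1.12 ± 0.52 SE on the log2 scale (95% interval 0.00 to 2.23), did not pass adjustment over all genes (edgeR adjusted p = 0.33). The difference between the injury responses was 0.65 ± 0.73 (edgeR adjusted p = 0.92).

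The balance of the pair was read as the share of smyhc1 in the summed counts of smyhc1 and smyhc2. It is a share of counts and not of molecules, since gene length was not corrected, and it is described without a test. It was 12.3, 9.0, 8.09 and 14.6% in wild type non-injured fish and 7.84, 8.53, 8.73 and 14.6% in wild type injured fish, with means of 11 ± 3.0% and 9.92 ± 3.14% (SD, n = 4). Those groups covered each other almost completely. In mutant non-injured fish it was 16.7, 7.40, 9.98 and 6.44%, with a mean of 10.1 ± 4.65%. In mutant injured fish it was 15, 15, 21 and 20.8%, with a mean of 18 ± 3.39%, and all 4 lay above all wild type injured fish, the nearest of which was at 14.6%. Summed over both genes the level was 1607 ± 830 CPM in wild type non-injured, 734 ± 173 CPM in wild type injured, 2505 ± 465 CPM in mutant non-injured and 888 ± 91.2 CPM in mutant injured fish (SD, n = 4). Reads that fit several similar myosin genes are divided among them by the estimation, so the value of either gene taken alone carries that uncertainty.

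**Figure D2:**
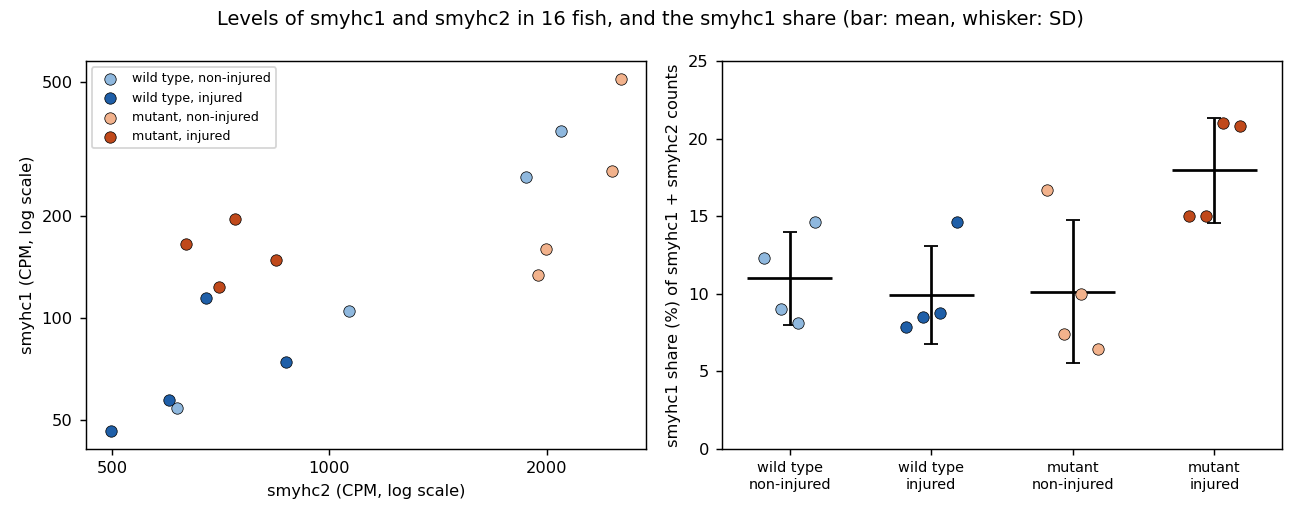
Left, level of smyhc1 against smyhc2 in the 16 fish (CPM, both axes logarithmic, each point 1 fish); right, smyhc1 share of the summed counts of both genes (%), with the mean as a bar and the SD as a whisker (n = 4). Levels of the pair varied together (Pearson r = 0.78 of log2 CPM), and the 4 mutant injured fish lay at 15 to 21% on the right.

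Across the 16 libraries the log2 levels of smyhc1 and smyhc2 had a Pearson r of 0.78, and an r of 0.85 once the group means were taken out, so that fish high in one were high in the other within groups too. These values are descriptions over 16 libraries that share neighbouring, similar genes and the same tissue pieces. With the mean of the slow contractile genes described further on, r was 0.92 for smyhc2 (0.80 within groups) and 0.58 for smyhc1 (0.70 within groups).

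The gene mybpc1 encodes the slow type myosin binding protein C, which binds thick filament myosin and modulates its interaction with actin. In wild type non-injured fish its level was 87.1, 129, 104 and 85.1 CPM, and in wild type injured fish 62.0, 67.5, 68.7 and 42.8 CPM. All 4 injured fish were below all 4 non-injured fish, yet the change of −0.75 ± 0.30 SE on the log2 scale did not pass the threshold (95% interval −1.39 to −0.11, edgeR adjusted p = 0.083); it passed in a fit of only these 2 groups (0.042) and without mutant injured fish 2 (0.0099). In mutants the values were 93.6, 85.1, 99.8 and 115 CPM without injury and 39.5, 90.3, 28.9 and 29.9 CPM with it. Here 3 of 4 injured fish were below every non-injured fish and injured fish 2 was among them. The change was −1.06 ± 0.30 SE, 2.08-fold lower (edgeR adjusted p = 0.017).

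The mybpc1 calls depended on single fish. Without mutant injured fish 2 the change in mutants was −1.58 on the log2 scale, and the change in wild type passed the threshold as well (edgeR adjusted p = 0.0099). Without any 1 of the mutant injured fish 1, 3 and 4 the call in mutants was lost, at edgeR adjusted p of 0.051, 0.054 and 0.057. It was also lost with libraries scaled by total count only (0.087), with the mean of the epidermis markers as a covariate (0.064) and in a fit of only these 2 groups (0.056). The genotypes differed by −0.04 ± 0.30 SE without injury and −0.35 ± 0.30 SE with it (edgeR adjusted p = 0.95 and 0.65), and the responses by −0.31 ± 0.42 (0.94). Unlike smyhc2, mybpc1 showed little common movement with the slow contractile genes within groups (r = 0.14, against 0.74 over all 16 libraries).

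The regulator prdm1a, the zinc finger repressor that commits embryonic precursors to the slow fate, was scarce. In wild type non-injured fish it was at 1.25, 0.427, 0.103 and 0.363 CPM, from 2 to 21 counts a library. In wild type injured fish it was at 4.61, 2.12, 3.21 and 1.31 CPM, from 31 to 127 counts. Every injured fish was above every non-injured fish, the closest pair being 1.31 and 1.25 CPM. The level was 5.31-fold higher (log2 change 2.41 ± 0.61 SE, edgeR adjusted p = 0.010). This call was kept in the 25 alternatives that tested it. They are no separate support, since the gene reached the filter on low counts through the injured libraries alone. Wild type non-injured fish 1 and wild type injured fish 1, which are different animals, were each highest of their group in prdm1a and in epidermis markers. Without those 2 libraries the change was 2.88, a value under the same limit of the filter.

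In mutants prdm1a went from 0.431, 0.321, 0.106 and 0.064 CPM, 1 to 8 counts, to 0.467, 1.43, 1.14 and 0.753 CPM, 10 to 31 counts. The groups again did not overlap, by a margin of 0.431 against 0.467 CPM. The level rose 3.97-fold (log2 change 1.99 ± 0.68 SE, edgeR adjusted p = 0.040), a call that was lost in 9 alternatives. Among them were limma-voom (adjusted p = 0.16), the epidermis covariate (0.10) and the removal of mutant injured fish 2 or mutant non-injured fish 3 (0.11 each). The gene reached the filter on low counts through the injured libraries alone, so that a gene with such counts and no change would not have been tested. Injured mutants were lower than injured wild type fish by −1.57 ± 0.57 SE on the log2 scale (95% interval −2.78 to −0.35), which missed the threshold after adjustment (edgeR adjusted p = 0.20). The responses differed by −0.42 ± 0.95 (0.96).

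PRDM1 is also known as the regulator of plasma cell differentiation, and it is active in other cell types as well. Of 9 IDs on a list of B and plasma cell markers 4 passed the filter, and none was called on injury by edgeR. Their median log2 change was 0.49 in wild type, with 1 of 4 negative, and 0.16 in mutants, with 2 of 4 negative. IRF4 was called in wild type in 1 of 25 alternatives, without non-injured fish 3 (edgeR adjusted p = 0.032). At an unadjusted p below 0.05 there were 0 in wild type and 0 in mutants, beside 6024 and 6417 of all 16514 genes. DESeq2 and limma-voom called 0 of these markers as well. Their summed level was 7.85 to 10.1 CPM in wild type non-injured, 7.81 to 15.6 CPM in wild type injured, 5.49 to 10.6 CPM in mutant non-injured and 6.11 to 12.7 CPM in mutant injured fish. The epidermis markers were not called in either injury comparison by edgeR, with a median log2 change of −0.25 in wild type and 1.19 in mutants over 14 IDs; at an unadjusted p below 0.05 there were 0 and 1, and DESeq2 called 0 and 1 and limma-voom 0 and 0. Their summed level was 352 to 2143 CPM in wild type non-injured, 225 to 1485 CPM in wild type injured, 173 to 838 CPM in mutant non-injured and 352 to 968 CPM in mutant injured fish. The part of these cell types in the prdm1a level was not tested.

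The repressor gene sox6 showed none of this movement. In wild type fish it was at 60.5, 66.7, 63.1 and 76.4 CPM without injury and at 54.5, 58.8, 68.1 and 65.2 CPM with it. In mutants it was at 58.3, 72.4, 64.7 and 47.5 CPM without injury and at 56.2, 65.8, 64.6 and 64.5 CPM with it. All 4 groups overlapped, and group means lay between 60.7 CPM in mutant non-injured and 66.7 CPM in wild type non-injured fish. The 95% interval of the injury change on the log2 scale was −0.40 to 0.17 in wild type (edgeR adjusted p = 0.58) and −0.24 to 0.33 in mutants (0.82), and neither interval reached the size of the smyhc2 change. Scaling by total count only gave 0.23 and 0.30 in place of −0.11 and 0.05, with the median of all genes at 0.34 and 0.26 in place of −0.03 and −0.02.

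**Figure D3:**
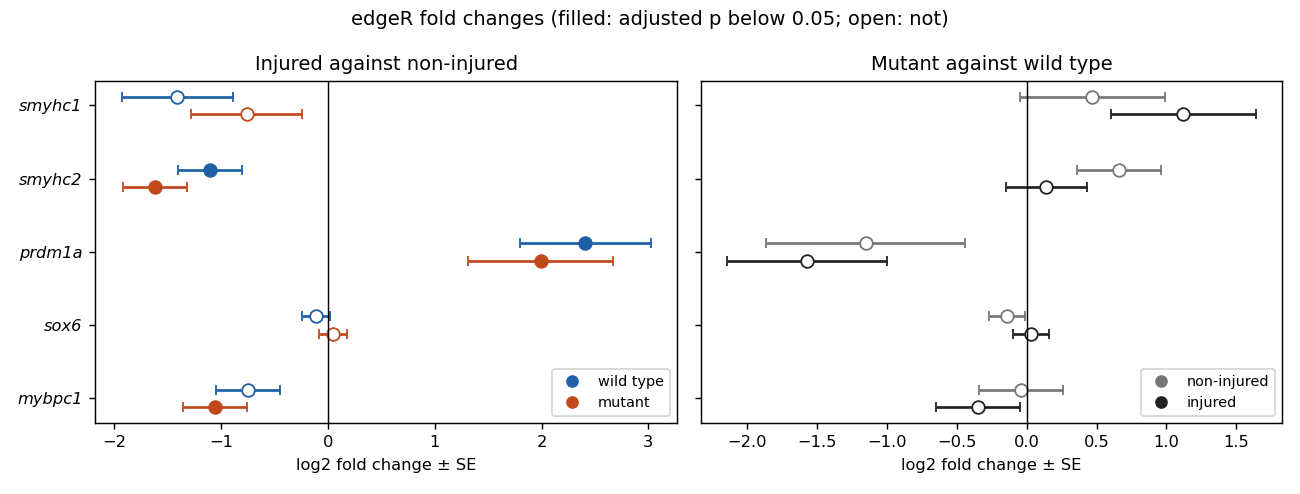
log2 fold change with its SE for each member, for injury within each genotype (left) and for the mutant relative to wild type fish, with and without injury (right); filled points passed an edgeR adjusted p of 0.05 and open points did not. Filled points stand on the left only: smyhc2 and prdm1a in both genotypes and mybpc1 in mutants.

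No genotype comparison of a member passed. At an unadjusted p below 0.05, edgeR had 1 member in non-injured fish (smyhc2), 2 in injured fish (smyhc1 and prdm1a) and 0 in the comparison of the responses. Of all 16514 genes tested 3305, 2474 and 1207 lay below it, in the same order. DESeq2 and limma-voom called 0 members in each of the 3 comparisons. By mean level the groups ranked mutant non-injured, wild type non-injured, mutant injured, wild type injured for both smyhc1 and smyhc2. Neighbours in that order overlapped in every case but the last pair of smyhc1. For prdm1a the order was wild type injured, mutant injured, wild type non-injured and mutant non-injured, with overlap between all neighbours. For mybpc1 it was wild type non-injured, mutant non-injured, wild type injured and mutant injured, and only the middle pair did not overlap.

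Other slow or cardiac type myosin heavy chain rows were read under the symbols and IDs of the table, since these symbols do not settle which zebrafish gene is meant. Of 6 IDs 5 were tested. In injured wild type fish 2 were higher and 1 lower, and in injured mutants 1 was higher and 3 lower, where 23.8% and 27.2% of all genes were called; edgeR called none between genotypes or between responses. At an unadjusted p below 0.05 edgeR had 2 in non-injured fish, 2 in injured fish and 4 between responses, beside 3305, 2474 and 1207 of all 16514 genes. DESeq2 called 1 of these myosin rows, lower in injured mutants, where it called 701 of all 16514 genes, 340 of them lower. With limma-voom 0 were called.

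The row MYH6 (ENSDARG00000079564) was nearly silent without injury, at 1.72, 1.77, 4.85 and 2.45 CPM in wild type and 4.15, 5.18, 4.17 and 4.92 CPM in mutant fish. After injury it was at 67.7, 49.8, 109 and 21.9 CPM in wild type and 11.9, 44.5, 19.2 and 17.2 CPM in mutant fish. Injured and non-injured fish were fully apart in both genotypes, and the injured genotypes overlapped. The log2 change was 4.51 ± 0.54 SE in wild type (edgeR adjusted p = 6.5e-05) and 2.33 ± 0.49 SE in mutants (edgeR adjusted p = 0.0033). The difference between the responses was −2.18 on the log2 scale and was not called (edgeR adjusted p = 0.45).

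A second row with that symbol, MYH6 (ENSDARG00000114031), went the other way in mutants. Its level was 223, 333, 236 and 233 CPM in wild type non-injured, 253, 172, 184 and 101 CPM in wild type injured, 283, 279, 306 and 574 CPM in mutant non-injured and 55.6, 207, 58.4 and 68.6 CPM in mutant injured fish. It fell in mutants (log2 change −1.89 ± 0.41 SE, edgeR adjusted p = 0.0040), while the change in wild type was −0.53 ± 0.40 SE (0.37). Mutant injured fish 2, the high fish for mybpc1, was also the high fish of its group here. The genes myh7ba and myh7bb, slow or cardiac type myosins of the MYH7B kind, fell in mutants by 1.16 and 1.17 on the log2 scale (edgeR adjusted p = 0.00051 and 0.0055). In wild type fish myh7ba fell by 0.62 (edgeR adjusted p = 0.027) and myh7bb changed by −0.19 (0.65). The scarce MYH7 row (ENSDARG00000079782), at most 55 counts in a library, was called higher in injured wild type fish (log2 change 2.28 ± 0.68 SE, edgeR adjusted p = 0.024). It had 3 to 6 counts in wild type non-injured libraries and passed the filter mainly through injured ones. A row with such counts and no change would not have been tested, so this call is weak. In mutants its change was 0.13 (0.91). Of these calls, that of MYH7 was lost in 6 alternatives (adjusted p up to 0.094) and that of myh7ba in wild type in 7 (up to 0.38). Without the 2 libraries high in epidermis markers they stood at 0.054 and 0.11. The myh7bb call in mutants was lost with libraries scaled by total count only (edgeR adjusted p = 0.066).

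**Figure D4:**
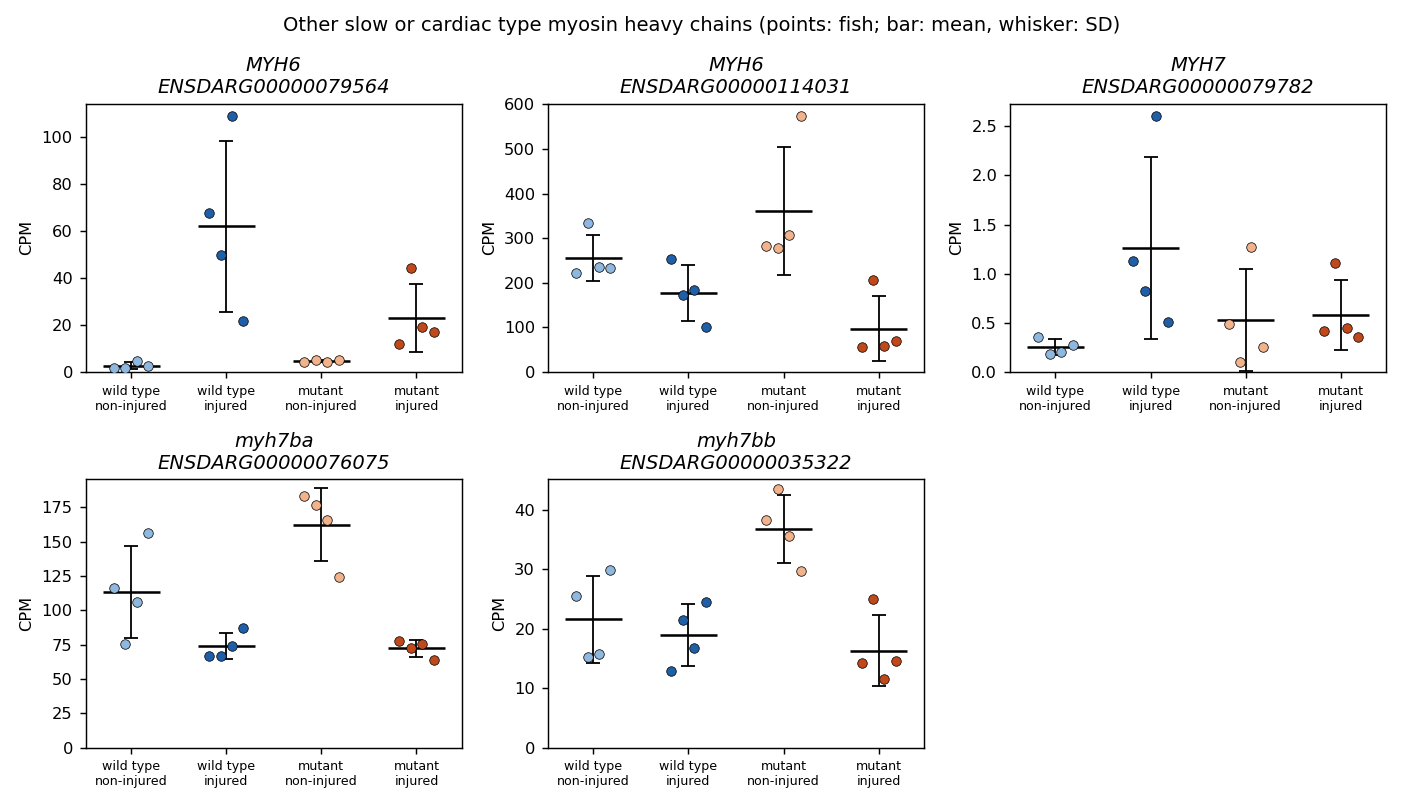
Level (CPM, linear axis from 0) of the 5 tested rows of other slow or cardiac type myosin heavy chains in every fish; points are fish, the bar is the mean and the whisker the SD (n = 4). MYH6 (ENSDARG00000079564) lies at 1.72 to 5.18 CPM without injury and at 11.9 to 109 CPM after it, while MYH6 (ENSDARG00000114031) lies at 55.6 to 207 CPM in mutant injured fish.

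Other genes of the myosin binding protein C family split. The cardiac type gene MYBPC3 (ENSDARG00000011615) fell in both genotypes, by 0.92 in wild type and 1.44 in mutants on the log2 scale (edgeR adjusted p = 0.0027 and 7.7e-05), from 244 ± 53.9 to 129 ± 20.6 CPM and from 284 ± 47.2 to 105 ± 13.6 CPM (SD, n = 4). The gene of the myosin binding protein H kind, mybpha, rose, by 1.25 (edgeR adjusted p = 0.038) and 1.64 (0.0087). Its call in wild type was lost in 9 alternatives, with an adjusted p of up to 0.092. The MYBPC3 call in wild type was lost with libraries scaled by total count only (edgeR adjusted p = 0.066). These were the 2 called among 5 genes tested in each genotype, where 23.8% and 27.2% of all genes were called, and the median log2 change of the 5 was −0.27 and 0.03.

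The slow contractile partners, a list of slow troponins, tropomyosins, light chains, calcium pumps and related genes, also fell. Of 18 IDs tested 9 were lower and 0 higher in injured wild type fish, where 11.9% of all genes tested were lower. In injured mutants 10 were lower and 0 higher, where 13.3% of all genes were lower. The median log2 change of the list was −0.78 and −1.12, beside −0.03 and −0.02 over all genes. Summed over the list the level was 3380 to 6388 CPM in wild type non-injured and 2320 to 2631 CPM in wild type injured fish, 5506 to 7778 CPM in mutant non-injured and 2150 to 2438 CPM in mutant injured fish, with no overlap in either genotype. Scaling by total count only changed the wild type count to 4 lower and 2 higher, with a median of −0.40 beside an all-gene median of 0.34, and the mutant count to 10 lower and 1 higher. By that scaling 537 of all 16514 genes were lower and 3673 higher in wild type, and 779 and 3108 in mutants.

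The calcium pump gene atp2a2a, which returns calcium to the sarcoplasmic reticulum in slow and cardiac muscle, fell from 1016 ± 232 to 327 ± 30.7 CPM in wild type (log2 change −1.64 ± 0.21 SE, edgeR adjusted p = 9.5e-05). In mutants it fell from 1399 ± 341 to 303 ± 39.6 CPM (−2.21 ± 0.21 SE, 5.9e-06). The slow troponin I gene tnni1c, an inhibitory subunit of the thin filament, fell by 1.21 ± 0.23 SE in wild type (edgeR adjusted p = 0.0017) and by 2.27 ± 0.23 SE in mutants (1.1e-05). TNNC1, the calcium-binding troponin of slow and cardiac muscle, fell by 0.89 and 1.45 (edgeR adjusted p = 0.0021 and 4.4e-05). The tropomyosin gene TPM2 fell by 0.76 and 0.85 (edgeR adjusted p = 0.00079 and 0.00026) and the light chain gene myl10 by 0.83 and 1.58 (0.0077 and 7e-05). Scaling by total count only ended both calls in wild type (0.11 each). For these genes no injured fish overlapped a non-injured fish, except for myl10 in wild type. They were named as called genes with the smallest p, so little overlap follows from that choice and is no added result.

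**Figure D5:**
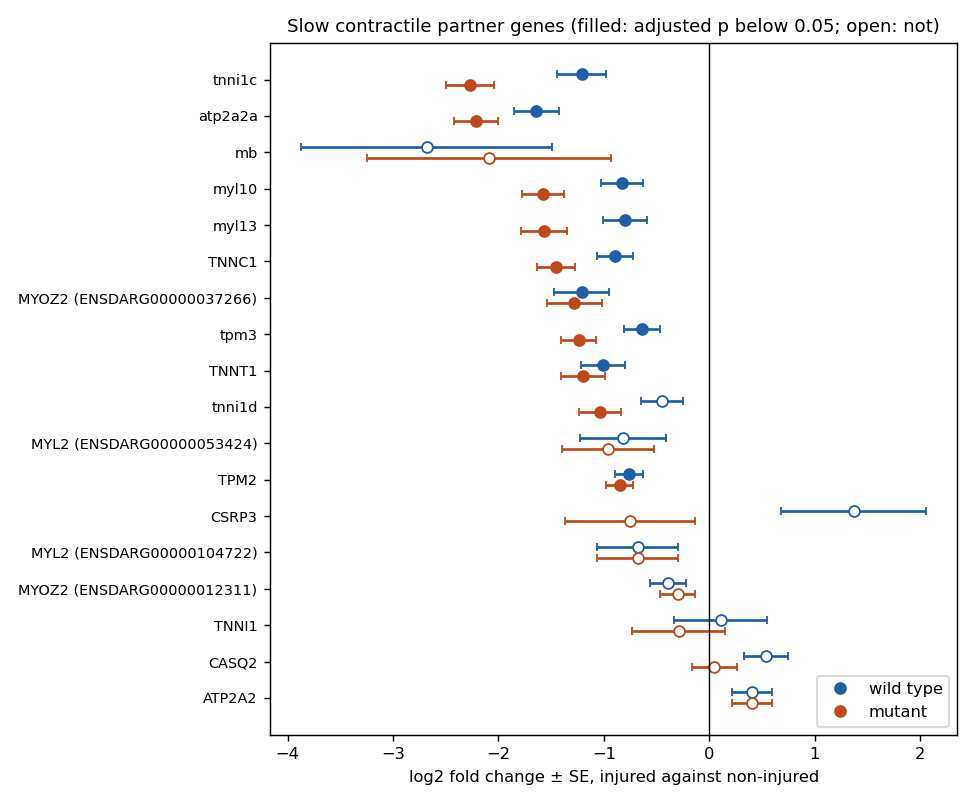
log2 fold change with its SE of 18 slow contractile partner IDs, injured against non-injured, in wild type (blue) and mutant (orange) fish; filled points passed an edgeR adjusted p of 0.05. Filled points lie left of 0, 9 in wild type and 10 in mutants, while CASQ2 and ATP2A2 have open points at or right of 0.

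Between genotypes the partners gave 1 call, 1 of 18 IDs in non-injured fish. Of all genes edgeR called 2.83% there, 1.38% higher in mutants, so 1 call is little beside that share. CASQ2, the calcium store protein of slow and cardiac muscle, was higher in non-injured mutants at 75.4 ± 15.9 CPM than in non-injured wild type fish at 37.8 ± 12 CPM (SD, n = 4; log2 difference 1.0 ± 0.21 SE, edgeR adjusted p = 0.022). The call was lost in 5 alternatives, at an adjusted p of up to 0.13 in a fit of only these 2 groups; the epidermis covariate gave 0.073. In injured fish edgeR called 0 of 18 between genotypes, with 5 at an unadjusted p below 0.05, beside 2474 of all 16514 genes. DESeq2 called 2 of the 18, both lower in mutants, where it called 701 of all 16514 genes, 340 of them lower. With limma-voom 0 of the 18 were called. In the comparison of the responses edgeR, DESeq2 and limma-voom called 0, and the median difference was −0.45. There 6 of the 18 had an unadjusted p below 0.05 in edgeR, beside 1207 of all 16514 genes. The partner comparisons within one genotype share their libraries with those of the members, and the genotype and injury comparisons share groups.

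Fast fibre genes were set beside these. Their summed level was 120947 to 224101 CPM in wild type non-injured and 97687 to 155282 CPM in wild type injured fish, with overlap. In mutants it was 109692 to 165157 CPM without injury and 89472 to 105330 CPM with it, with no overlap. A lower sum without overlap was thus not particular to the slow genes in mutants. Of 11 fast fibre IDs 1 was higher and 1 lower in injured wild type fish and 1 higher and 2 lower in injured mutants, shares near the 23.8% and 27.2% of all genes called, with medians of −0.17 and 0.02 on the log2 scale. The higher ID in each genotype was TNNT3 (ENSDARG00000030270). It passed the filter on low counts through the injured libraries alone, so it does not show a rise of fast fibre genes. Scaling by total count only gave 2 higher and 1 lower in wild type and 5 higher and 2 lower in mutants. By that scaling 3673 of all 16514 genes were higher and 537 lower in wild type, and 3108 and 779 in mutants. The creatine kinase gene ckmb fell by 0.95 and 1.20 (edgeR adjusted p = 0.015 and 0.0036), and ckma by 1.04 in mutants (0.013). The ckmb call in wild type was lost in 4 alternatives (adjusted p up to 0.081), among them the removal of wild type non-injured fish 2 (0.053) or injured fish 1 (0.050) or 2 (0.052), and the ckma call with the epidermis covariate (0.078). The list of general skeletal muscle genes, which holds the creatine kinases too, had 1 higher and 1 lower in wild type and 1 higher and 2 lower in mutants among 8 IDs; the desmin gene DES (ENSDARG00000058656), an intermediate filament gene, was the one higher, by 0.43 and 0.90 (0.048 and 0.00060). Its call in wild type was lost in 17 of 26 alternatives, at an adjusted p of 0.20 without the 2 libraries high in epidermis markers.

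Upstream of prdm1a in the embryo stands the Hedgehog pathway. Of 15 tested IDs of its ligands, receptors and effectors 4 were higher and 1 lower on injury in each genotype, where 11.8% of all genes were higher and 11.9% lower in wild type and 14.0% and 13.3% in mutants. BOC, a coreceptor of Hedgehog ligands, rose from 9.49 ± 2.04 to 17.6 ± 0.764 CPM in wild type and from 8.85 ± 0.608 to 18.8 ± 2.04 CPM in mutants (SD, n = 4; edgeR adjusted p = 0.00043 and 6.3e-05). SMO, the membrane protein that relays the signal, rose by 0.77 on the log2 scale in each genotype (0.0016 and 0.0013). The transcription factor genes GLI3 in wild type (1.3, 0.0033) and GLI2 (ENSDARG00000020884) in mutants (1.61, 0.015) also rose, as did GLI2 (ENSDARG00000025641) by 0.96 and 1.08 (0.014 and 0.0067). The call of GLI2 (ENSDARG00000020884) was lost without mutant non-injured fish 3 (edgeR adjusted p = 0.05). That of GLI2 (ENSDARG00000025641) in wild type was lost in a fit of only the groups compared (0.066). The receptor gene PTCH1, named here after its values were seen as the 1 lower gene and known as a direct target of the pathway, went from 7.3 ± 1.4 to 5.33 ± 0.856 CPM in wild type and from 7.08 ± 0.588 to 4.98 ± 0.50 CPM in mutants (edgeR adjusted p = 0.042 and 0.023). With libraries scaled by total count only, 0 of the 15 were lower, where 537 of all 16514 genes were lower in wild type and 779 in mutants. GLI1, another known target, changed by −0.26 and −0.02 and was not called (edgeR adjusted p = 0.46 and 0.97).

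Among 30 IDs of other fibre type regulators 3 were higher and 4 lower in injured wild type fish, and 6 higher and 5 lower in injured mutants. Of all genes 23.8% were called in wild type, a share near that of the list, and 27.2% in mutants. Among those lower in wild type were the homeobox gene six4a, by 0.85, the phosphatase and cofactor gene EYA4, by 0.85, and the Tead cofactor gene vgll2b, by 0.66 (edgeR adjusted p = 0.0094, 0.0049 and 0.011); six4a and vgll2b were called lower in mutants too, calls lost in 4 and 10 of 26 alternatives. Among those higher in mutants were tead1a, by 1.16, and the calcineurin-responsive factor gene NFATC1, by 0.77 (edgeR adjusted p = 0.0023 and 0.0044). Both were called higher in wild type too, calls lost in 6 and 8 alternatives. Among these was the removal of the 2 libraries high in epidermis markers (edgeR adjusted p = 0.20 and 0.14). The lower calls depended on the scaling: by total count only, 8 regulators were higher and 0 lower in wild type and 9 higher and 0 lower in mutants. By that scaling 3673 of all 16514 genes were higher and 537 lower in wild type, and 3108 and 779 in mutants. Without the 2 libraries high in epidermis markers, 0 regulators were higher and 4 lower in wild type, with 6 at an unadjusted p below 0.05. There 1364 of 16689 genes tested were called higher and 1347 lower. Between genotypes and between responses edgeR, DESeq2 and limma-voom called 0 genes of either regulator list. In edgeR 0, 4 and 3 fibre type regulators and 0, 1 and 0 Hedgehog genes had an unadjusted p below 0.05 in non-injured fish, in injured fish and between responses. Of all 16514 genes 3305, 2474 and 1207 did, in the same order.

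Genes with the most similar profiles were named by the highest Pearson r of log2 CPM over the 16 libraries, among 10824 genes with a symbol and a mean of at least 1 log2 CPM. For smyhc1 these were BCAT2 (r = 0.93), cax2 (0.92) and DBT (0.91), and within groups r was 0.90, 0.94 and 0.90. For smyhc2 they were the troponin genes tnnt2d (0.94) and tnni4b.1 (0.93) and the mitochondrial carrier gene slc25a18 (0.92), with 0.89, 0.79 and 0.72 within groups. For mybpc1 the first was MYH6 (ENSDARG00000114031) at 0.93, then chs1 (0.92) and MYLIP (0.91). For prdm1a they were pld7 (0.91), NHSL2 (0.89) and the matrix protease gene MMP2 (0.89), where r within groups was 0.70, 0.65 and 0.55. For sox6 the highest were JMJD4 (0.81), bag1 (0.75) and MIER3 (0.74). These are the largest of many values over libraries that share injury state, genotype and depth, and they are given as a description.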

How the data were processed

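Libraries of poly A RNA, each from 1 fish, were strand-specific, per the labels' protocols. The authors deposited 1 table of estimated counts. RSEM 1.3.3, fastp 0.23.4 and STAR in the versions 2.7.0 and 2.7.10 are listed without roles, per the submitters' processing notes. The genome build, annotation and strand option were not given in the sources used here. Estimated counts (94.3% whole) were rounded to whole numbers. All 16 columns were matched to samples by a number, which heads the column and is given as the sample's description.

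Members, the 10 gene lists (slow contractile partners, other slow or cardiac myosins, myosin binding protein C family, Hedgehog pathway, fibre type regulators, and markers of epidermis, B and plasma cells, heart, fast fibres and skeletal muscle) and the tests were chosen with earlier results of these data known. Of 143 list symbols 128 matched; paralogs that share a symbol all entered a list.

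edgeR 4.0.16 (R 4.3.3) was run with filterByExpr (minimum count 10, minimum total 15; 16514 genes kept), TMM and 1 quasi-likelihood fit of all 16 libraries (12 residual degrees of freedom, biological coefficient of variation 31.3%). Adjusted p-values are Benjamini-Hochberg over all genes tested, two-sided, called below 0.05; SE and 95% intervals come from the F statistic. Fish are the replicates. Alternatives were DESeq2 1.42.0, limma-voom (limma 3.58.1), other scalings and filters, subsets of groups, a replicate block, an epidermis covariate and each library left out; removal of the 2 libraries highest in epidermis markers was added after seeing the data. The tests were checked on simulated counts. Among 24 pairs of libraries within groups 0 were identical. Totals of 17324501 to 25231137 counts limit prdm1a most. Named from each list are per comparison the called genes with the smallest p (up to 4), or the highest expressed ones; some genes that this rule names are not reported here.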

Additional observations from a re-analysis of the deposited data

Results flagged for a closer look

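In 6 of 44 groups of 4 values, 1 fish lay so far from the other three that its gap, as a fraction of the group's range, exceeded Dixon's critical value at the 95% level; chance flags about 1 in 20 groups. For sox6 in injured mutants fish 1 was low, at 56.2 CPM (fraction 0.859). MYH6 (ENSDARG00000114031) had a high fish in 3 groups: fish 2 at 333 CPM in non-injured wild type (0.884), fish 4 at 574 CPM in non-injured mutants (0.909) and fish 2 at 207 CPM in injured mutants (0.915). MYH7 (ENSDARG00000079782) had the same mutant injured fish 2 high (0.877). The smyhc1 share of the summed smyhc1 and smyhc2 counts had wild type injured fish 4 high, at 14.6% (0.869).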

How the results depend on the processing

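Over the alternatives no injury change of smyhc1, smyhc2, prdm1a or mybpc1 changed sign: log2 values ran from −1.33 to −0.81 (wild type) and −1.69 to −1.34 (mutant) for smyhc2, and from 2.06 to 3.22 and 1.71 to 2.46 for prdm1a. For prdm1a, which passed the filter through the injured libraries alone, the constant sign is no separate support. Members called on injury numbered 2 in wild type and 3 in mutants; in wild type 1 was called with library size only and 1 with at least 50 counts in 4 samples, a filter that leaves prdm1a untested, and in mutants 1 was called with the epidermis covariate. Leaving out 1 library gave 1 to 3 members in each genotype: 1 in wild type without wild type non-injured fish 4 or injured fish 2, and 1 in mutants without mutant injured fish 3 or 4. Between genotypes and responses it gave 0 throughout.

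Counts over all genes moved more. On injury in wild type 3927 genes were called, against 2543 in a fit of only the groups compared and 2608 to 4205 with 1 library left out (2608 without wild type injured fish 2). In mutants 4496 were called, against 2873 with the epidermis covariate. Between genotypes without injury 467 were called, against 1136 with DESeq2, 289 with limma-voom, 119 with only the groups compared, 170 with the epidermis covariate, 299 without the libraries highest in epidermis markers and 172 to 625 with 1 library left out (172 without mutant non-injured fish 3). In injured fish 244 became 701 with DESeq2, 389 with only the groups compared, 134 without the libraries highest in epidermis markers and 106 to 289 with 1 library left out (106 without wild type injured fish 2). Between responses 10 became 66 with DESeq2, 5 with limma-voom, 6 with library size only, 5 with the stricter filter, 4 with the epidermis covariate and 5 to 13 with 1 library left out. The cause of these moves was not tested. Scaling by library size only made 87.2% of the wild type injury calls higher in place of 49.8%, 80% in place of 51.3% in mutants, and 82.0% and 74.0% in place of 48.8% and 56.1% between genotypes.

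Replicate numbers were not used to pair fish in the main fit. Deviations of same-numbered fish correlated at −0.19 to 0.34, with 3 of 4 pairs over 0.1 for injury in wild type, 2 of 4 between injured genotypes and 0 in the other 2 comparisons. The best match was the fish of the same number in 2 of 4, 2 of 4 and 0 pairs in that order. Shared handling by number was not tested. A replicate block gave 3653, 4274, 383, 164 and 4 genes in the 5 comparisons and changed no member's call; in wild type it ended the injury calls of mybpha (0.051) and NFATC1 (0.060). No member lay below the count filter, so the alternative planned for such members was not run. At 1 to 127 counts a library, prdm1a is the member that depth limits.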

Other observations

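A fast fibre row had almost no counts without injury. TNNT3 (ENSDARG00000030270), a fast troponin T row, had 0 counts in all 4 wild type non-injured libraries and 0 to 3 counts in mutant non-injured ones. In wild type injured fish it had 796 to 1926 counts (48.6 ± 15.2 CPM, SD, n = 4) and in mutant injured fish 750 to 1952 counts (73.0 ± 24.3 CPM). It passed the filter on low counts through the injured libraries alone, so these counts are given as a description, with no test. The other row with this symbol, TNNT3 (ENSDARG00000068457), lay at 9454 to 18718 CPM in all groups and was not called on injury (edgeR adjusted p = 0.42 in wild type and 0.96 in mutants).

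The myoglobin gene mb, the oxygen store of oxidative muscle, had a wide spread between fish of each group. It lay at 45.4 to 1137 CPM in wild type non-injured, 21.6 to 241 CPM in wild type injured, 157 to 1657 CPM in mutant non-injured and 23.9 to 362 CPM in mutant injured fish. Its injury change of −2.68 ± 1.19 SE in wild type and −2.09 ± 1.16 SE in mutants on the log2 scale was not called (edgeR adjusted p = 0.12 and 0.20).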
